A study of Mus musculus with 66 samples.

Results

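A set of 6 genes of the LIF signalling route was followed in mouse embryonic stem cells as they left mitosis with or without the nuclear receptors Esrrb and Nr5a2. They were taken by name: Lifr and Il6st, the receptor subunits, Jak1, the kinase bound to them, Stat3, the transcription factor that it activates, and Socs3 and Pim3, which respond to Stat3. All 6 had values among the 13957 genes of the authors' deposited expression table. The RNA came from an E14Tg2a derivative on a 129/Ola background in which auxin degrades Esrrb and Nr5a2, with auxin and without it. Each arm was sampled at 9 stages, namely arrest in mitosis, then 20, 30, 40, 50 and 60 minutes and 90 and 120 minutes after release, and asynchronous culture, with 3 libraries per group and 54 in all. Every RNA group, those without auxin included, carries the degradable receptors. Auxin was not also given to unmodified cells among these samples, and both receptors are degraded together, so effects of auxin, of Esrrb loss and of Nr5a2 loss cannot be told apart. The agent of the arrest is not named in the labels. Whether the derivative is 1 clone is not given in the sources used here. Nr5a2 binding came from wild-type E14Tg2a cells, as 1 list of 35266 peaks. The 12 ChIP-seq libraries of the study are 3 each of Nr5a2 and of input from mitotic and from interphase cells, and how they were combined into the list is not stated.

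LIF is the cytokine that holds mouse embryonic stem cells in the naive state. It joins Lifr to Il6st, the subunit shared by receptors of the interleukin-6 family, and kinases of the Jak family bound to both then phosphorylate Stat3, which enters the nucleus and raises transcription of its targets. Socs3 is such a target and closes a negative loop, since its protein binds Il6st and Jak kinases and blocks them, and Pim3 encodes a serine/threonine kinase that promotes self-renewal. Esrrb and Nr5a2 both read DNA through a core motif AAGGTCA that is extended at its 5′ end, and STAT dimers read the palindrome TTCNNNGAA.

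The promoter stretches below are shown because they hold these motifs or lie under an Nr5a2 peak. They are the 250 bases before a start site, from RefSeq on GRCm38.p6, the assembly behind mm10, and entries were found for all 6 genes, 7 in total because Lifr has 2. Capitals mark TGACCTTG in Lifr, which is CAAGGTCA read on the opposite strand. They mark TGACCTT in Pim3, which is AAGGTCA on the opposite strand, TTCTTAGAA in Socs3, and in Jak1 the 147 bases that lie inside a peak of class eB, taking the list's positions as counted from 1.
Lifr, chr15:7129322-7129571, plus strand: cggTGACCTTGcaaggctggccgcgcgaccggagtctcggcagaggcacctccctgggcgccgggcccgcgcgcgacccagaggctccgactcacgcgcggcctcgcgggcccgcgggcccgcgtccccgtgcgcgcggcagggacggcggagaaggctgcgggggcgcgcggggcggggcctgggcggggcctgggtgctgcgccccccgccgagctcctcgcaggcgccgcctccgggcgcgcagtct
Pim3, chr15:88861944-88862193, plus strand: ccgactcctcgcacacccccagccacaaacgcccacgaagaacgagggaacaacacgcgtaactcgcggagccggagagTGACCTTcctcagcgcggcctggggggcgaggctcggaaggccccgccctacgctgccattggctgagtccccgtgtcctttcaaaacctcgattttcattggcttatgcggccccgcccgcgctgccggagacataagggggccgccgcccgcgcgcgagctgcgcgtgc
Socs3, chr11:117969367-117969616, minus strand: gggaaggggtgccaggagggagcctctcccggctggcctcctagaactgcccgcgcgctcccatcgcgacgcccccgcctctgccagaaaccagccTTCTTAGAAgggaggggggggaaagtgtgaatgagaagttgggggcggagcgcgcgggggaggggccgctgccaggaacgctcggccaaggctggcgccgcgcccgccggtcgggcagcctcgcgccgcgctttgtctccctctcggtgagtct
Jak1, chr4:101265224-101265473, minus strand: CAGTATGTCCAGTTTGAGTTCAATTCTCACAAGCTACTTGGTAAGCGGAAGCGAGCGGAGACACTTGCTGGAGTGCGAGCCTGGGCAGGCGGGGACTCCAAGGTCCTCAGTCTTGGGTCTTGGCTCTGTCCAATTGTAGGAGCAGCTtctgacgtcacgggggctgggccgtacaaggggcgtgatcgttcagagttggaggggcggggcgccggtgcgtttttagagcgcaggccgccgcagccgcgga

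Both strands of the 7 windows were searched for AAGGTCA, for its extension CAAGGTCA, which contains it, and for TTCNNNGAA. CAAGGTCA stood in 1 member, Lifr, 247 bases before the start, against 1.33% of all 32851 promoter windows of this length. AAGGTCA stood in Lifr and Pim3, in Pim3 171 bases before the start, against 4.08% of all windows. TTCNNNGAA stood in Socs3, 154 bases before the start, against 7.02% of all windows. These shares are per window, and some genes have more than 1. Of the 27025 genes with such windows, 408 had CAAGGTCA in at least 1 window, 1271 had AAGGTCA and 2197 had TTCNNNGAA. Here and below a start is that of the promoter entry. For Socs3 it lies inside the RefSeq gene span, so the printed Socs3 window is within that span, and the starts of Lifr, Jak1 and Stat3 also lie inside theirs. These are letter matches, and nothing here shows that they are bound. None of the matches in Lifr, Pim3 and Socs3 lies inside a listed Nr5a2 peak. The Jak1 window, partly under a peak, holds none of these motifs.

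Expression is in TPM, which takes out differences in gene length and sequencing depth, and each value is the authors' mean of 3 libraries. No value therefore carries a replicate error, no single gene has a test here, and the depth of the libraries is unknown. The labels do not say whether the 3 libraries are separate cultures, nor do the sources used here say if introns were counted. The levels below are therefore not to be read as those of spliced RNA. The listed genes summed to between 17155 and 46542 TPM per column with auxin and between 17189 and 49059 TPM without it, lowest in mitosis and highest at 60 minutes in both arms. These sums are a small part of the total to which TPM is scaled, and what holds the rest is not stated. These are bulk measurements, so fewer cells that express a gene and less RNA per cell cannot be told apart. The 6 embryonic stem cell markers that have values, Pou5f1, Nanog, Zfp42, Esrrb, Sall4 and Dppa5a of a list of 7, summed to 39.2 to 88.7 TPM with auxin and 42.5 to 119 TPM without. These sums differ between the arms, and their part in the results was not tested. The 3 primitive endoderm markers with values, of 4 listed, summed to at most 0.508 and 0.527 TPM. The 3 fibroblast markers with values, of 5 listed, summed to 3.37 to 12.5 TPM with auxin and 3.59 to 15.2 TPM without, mostly from Fn1, with Col1a1 and Thy1 at or under 0.150 and 0.220 TPM in every group. RNA of the degraded receptors does not measure their protein. Esrrb ranged over the stages from 1.47 to 6.27 TPM with auxin and from 1.61 to 6.74 TPM without, and Nr5a2 from 2.61 to 5.65 TPM and from 2.13 to 6.90 TPM.

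The receptor subunits were lower with auxin at most stages, with the widest gaps in TPM from 60 minutes on and in asynchronous cells. Already in mitosis the level with auxin was 0.867 times that without for Lifr and 0.889 times for Il6st. Lifr, at chr15:7090610-7197489, had 0.935 TPM in mitosis, 0.903, 0.889, 0.916, 1.32, 2.07, 2.50 and 1.82 TPM through the 7 release times and 1.72 TPM in asynchronous cells with auxin. Without auxin it had 1.08 TPM in mitosis, 1.09, 0.965, 1.01, 1.55, 2.80, 3.11 and 2.32 TPM through the 7 release times and 2.29 TPM in asynchronous cells. The level with auxin was below that without at all 9 stages. It was 0.921 times that without auxin at 30 minutes, where the arms were closest, and 0.739 times at 60 minutes, where they were farthest apart. Il6st, which encodes the shared subunit gp130, lies at chr13:112464070-112506860 and had 1.40 TPM in mitosis, 1.33, 1.33, 1.57, 2.85, 4.36, 4.67 and 3.33 TPM through the 7 release times and 2.73 TPM in asynchronous cells with auxin. Without auxin it had 1.58 TPM in mitosis, 1.63, 1.34, 1.43, 2.98, 5.45, 5.68 and 4.14 TPM through the 7 release times and 3.65 TPM in asynchronous cells. Its level with auxin was below that without at 8 of 9 stages, 40 minutes being the exception. Both genes were highest at 90 minutes in both arms.

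**Figure D1:**
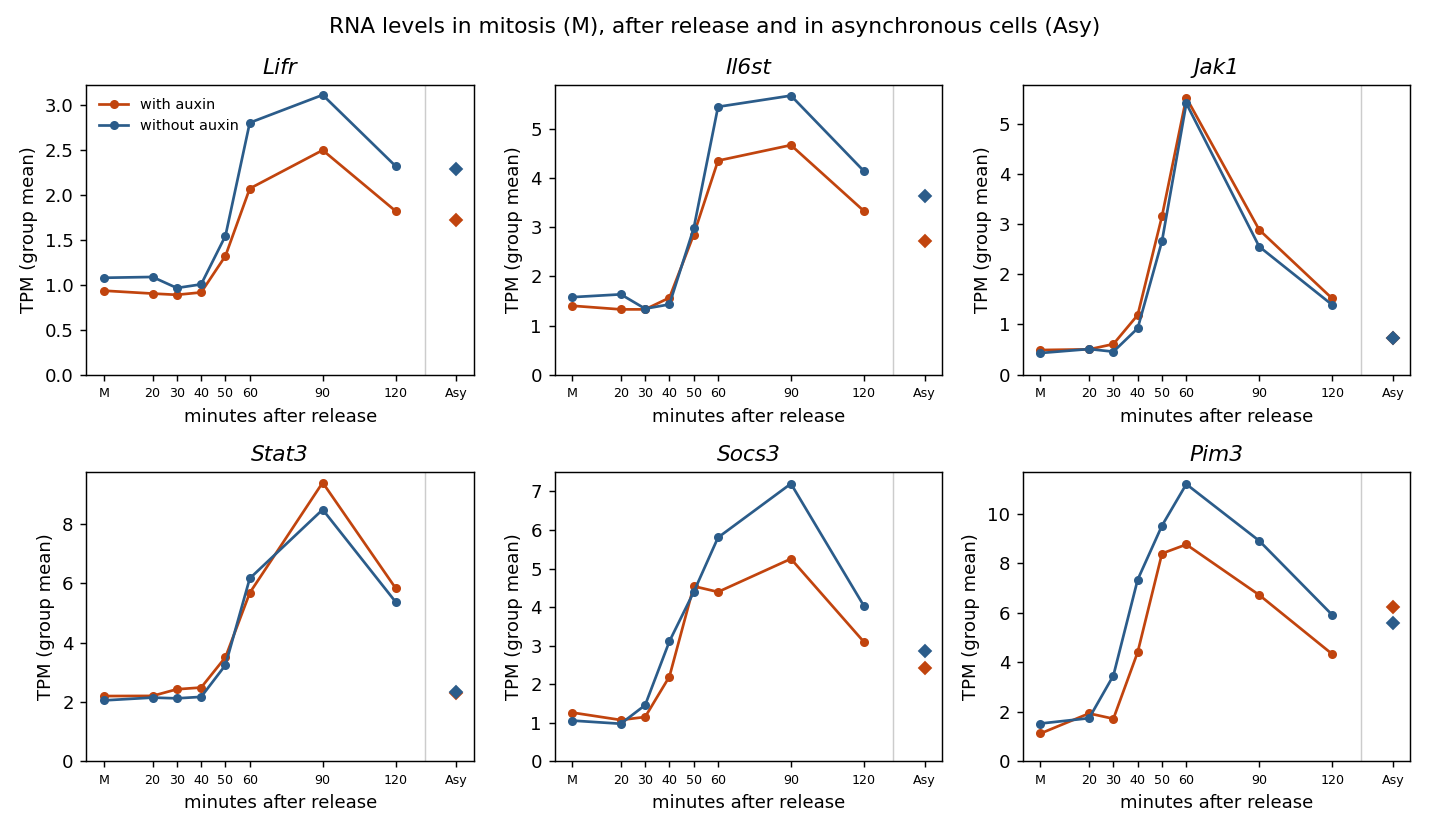
RNA level in TPM (authors' mean of 3 libraries, no error available) of the 6 genes against stage, with auxin in red and without auxin in blue. M is mitosis, diamonds are asynchronous cells, and each panel has its own scale. The arms of Lifr and Il6st lie farthest apart in TPM from 60 minutes on and in asynchronous cells. Pim3 is lower with auxin in mitosis and from 30 to 120 minutes, while Jak1 reaches 5.52 TPM with auxin and 5.40 TPM without at 60 minutes.

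On the log2(TPM + 1) scale, which understates changes of low genes, the difference with minus without auxin of Lifr was -0.13, -0.06, -0.07, -0.13, -0.31, -0.23 and -0.24 at the 7 release times in order. It averaged -0.17 over the release times, with an SD over times of 0.09, and stood at -0.10 in mitosis and -0.28 in asynchronous cells. Il6st had -0.18, -0.01, 0.08, -0.05, -0.27, -0.24 and -0.25 at the same times, averaging -0.13 with an SD over times of 0.14, larger than the mean in size. It had -0.10 in mitosis and -0.32 in asynchronous cells. The median difference of the 8999 genes of at least 1 TPM in any group moved between -0.06 at 60 minutes and 0.08 at 40 minutes. The 40 minute value of Il6st lies at that median, and 2.97% of those genes had a difference as low as that of Il6st at 60 minutes. For Lifr at 60 minutes this share was 2.01%. On the mean over the release times the shares were 3.08% for Lifr and 4.93% for Il6st. In mean TPM over the release times, Lifr had 1.49 TPM with auxin and 1.83 TPM without, which is 18.9% lower with auxin, and Il6st had 2.78 TPM with auxin and 3.24 TPM without, 14.2% lower.

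The 2 subunits followed similar courses, while the ratio between them moved. Their log2(TPM + 1) values had a Pearson correlation of 0.980 over the 18 groups. Il6st ranked 8th among all genes in likeness to Lifr, and Lifr 21st in likeness to Il6st. The groups share the shift from mitosis to interphase, which gives most pairs a high value, with a median of 0.780 for Lifr against all genes, so this is a description. With auxin the TPM ratio of Il6st to Lifr ranged from 1.47 at 20 minutes to 2.16 at 50 minutes. Without auxin it ranged from 1.39 at 30 minutes to 1.94 at 60 minutes. The ratio was 1.71 with auxin and 1.42 without at 40 minutes, and 2.10 with auxin and 1.94 without at 60 minutes. In asynchronous cells the ratio was 1.59 in both arms.

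Jak1, the kinase, stood highest at 60 minutes in both arms and was well down again by 120 minutes. The gene spans chr4:101151974-101265282 on the minus strand and had 0.491 TPM in mitosis, 0.505, 0.609, 1.19, 3.16, 5.52, 2.89 and 1.52 TPM through the 7 release times and 0.726 TPM in asynchronous cells with auxin. Without auxin it had 0.431 TPM in mitosis, 0.511, 0.459, 0.924, 2.66, 5.40, 2.55 and 1.39 TPM through the 7 release times and 0.722 TPM in asynchronous cells. At 60 minutes the TPM was 11.2 times the mitotic level with auxin and 12.5 times without. By 120 minutes the level was at 27.5% of its highest release level with auxin and 25.8% without, against medians over all genes of 83.5% and 80.7%. The highest level was 7.60 times that of asynchronous cells with auxin and 7.49 times without, and 3.54% of genes without auxin had a log2 ratio of this kind as high. Its differences between arms were -0.01, 0.14, 0.19, 0.18, 0.03, 0.13 and 0.07 through the release times, above 0 at 6 of 7 times and at all 7 once the all-gene median of the stage is taken off, and 0.00 in asynchronous cells. They averaged 0.10 with an SD over times of 0.08, and 4.12% of genes had a mean difference as high. In mean TPM after release, Jak1 had 2.20 TPM with auxin and 1.99 TPM without. The far end of Jak1 overlaps Raver2, and reads of overlapping genes cannot be told apart if counting ignored strand, which also touches Stat3 and Pim3, each overlapped by a RefSeq gene outside the table.

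Stat3, at chr11:100886806-100939594 on the minus strand, stood highest at 90 minutes in both arms, later than the kinase. It had 2.20 TPM in mitosis, 2.21, 2.43, 2.49, 3.51, 5.68, 9.40 and 5.84 TPM through the 7 release times and 2.29 TPM in asynchronous cells with auxin. Without auxin it had 2.06 TPM in mitosis, 2.15, 2.13, 2.18, 3.25, 6.17, 8.49 and 5.38 TPM through the 7 release times and 2.34 TPM in asynchronous cells. Up to 40 minutes the level was at most 1.13 times its mitotic level in either arm, and at 60 minutes it was at 60.5% of its highest release level with auxin and 72.7% without, where the medians of all genes were at 91.4% and 97.0%. At 90 minutes it was 4.10 times its asynchronous level with auxin and 3.64 times without. Between arms the log2 differences were 0.03, 0.13, 0.14, 0.09, -0.10, 0.13 and 0.10, higher with auxin at 6 of 7 release times and lower at 60 minutes. They averaged 0.07 with an SD over times of 0.09, larger than the mean, and 11.8% of genes had a mean difference as high. In asynchronous cells the difference was -0.018, and its sign turned, to 0.030, with columns centred on their median.

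Socs3, the feedback inhibitor, lies at chr11:117966079-117970336 on the minus strand and was lower with auxin at 5 of 7 release times. It had 1.27 TPM in mitosis, 1.07, 1.15, 2.20, 4.54, 4.39, 5.25 and 3.10 TPM through the 7 release times and 2.43 TPM in asynchronous cells with auxin. Without auxin it had 1.06 TPM in mitosis, 0.977, 1.46, 3.11, 4.39, 5.80, 7.20 and 4.03 TPM through the 7 release times and 2.86 TPM in asynchronous cells. The arms crossed: the level was higher with auxin in mitosis and at 20 and 50 minutes, and lower with auxin at 30, 40, 60, 90 and 120 minutes and in asynchronous cells. At 90 minutes, the highest level in both arms, the level with auxin was 0.730 times that without. The log2 differences through the release times were 0.07, -0.19, -0.36, 0.04, -0.34, -0.39 and -0.30, averaging -0.21 with an SD over times of 0.19, nearly as large as the mean. A mean difference as low was found for 1.89% of genes. In mean TPM after release, Socs3 had 3.10 TPM with auxin and 3.85 TPM without, which is 19.5% lower with auxin.

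On the log2(TPM + 1) scale Pim3, the kinase gene, was the first of the 6 to stand 2-fold above mitosis and had the widest mean difference between arms. It lies at chr15:88862194-88865726 and had 1.13 TPM in mitosis, 1.94, 1.72, 4.42, 8.40, 8.77, 6.73 and 4.34 TPM through the 7 release times and 6.25 TPM in asynchronous cells with auxin. Without auxin it had 1.53 TPM in mitosis, 1.75, 3.47, 7.35, 9.53, 11.2, 8.92 and 5.92 TPM through the 7 release times and 5.59 TPM in asynchronous cells. In mitosis the level with auxin was 0.738 times that without, at 30 minutes 0.497 times and at 40 minutes 0.601 times. At 20 minutes and in asynchronous cells the order was the other way, with auxin the higher. The log2 differences were 0.10, -0.71, -0.62, -0.16, -0.32, -0.36 and -0.37 through the release times, -0.25 in mitosis and 0.14 in asynchronous cells. They averaged -0.35 with an SD over times of 0.27, and 0.467% of genes had a mean difference as low. In mean TPM after release, Pim3 had 5.19 TPM with auxin and 6.88 TPM without, which is 24.6% lower with auxin.

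**Figure D2:**
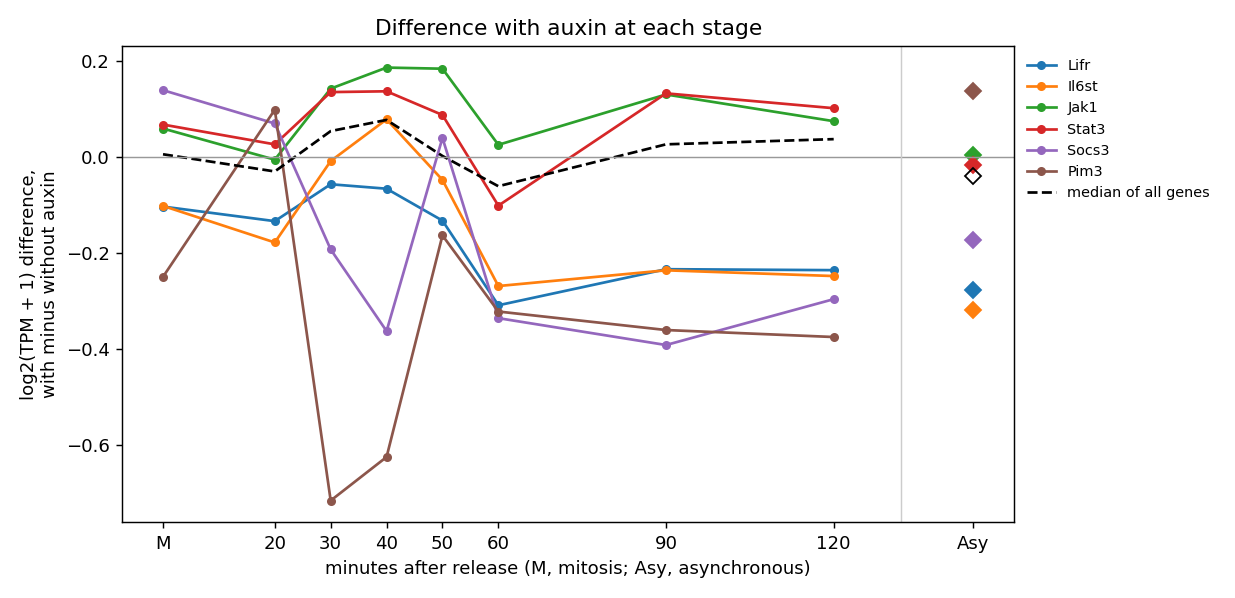
Difference in log2(TPM + 1), with minus without auxin, of the 6 genes (coloured lines) and the median of 8999 genes (dashed line) at each stage; M is mitosis and diamonds are asynchronous cells. Pim3 stands at -0.71 at 30 minutes and 0.14 in asynchronous cells, and Lifr, Il6st, Socs3 and Pim3 lie between -0.39 and -0.23 from 60 to 120 minutes while Jak1 and Stat3 lie between -0.10 and 0.13.

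Counted at a 1.5-fold difference on the log2(TPM + 1) scale, Pim3 was the 1 member that was lower with auxin at 30 minutes, as were 0.156% of all genes of at least 1 TPM, and again at 40 minutes, as were 0.367% of them. No member was 1.5-fold lower at the other stages, where the share of all genes was 0.144% in mitosis, 0.133% at 20, 0.167% at 50, 0.311% at 60, 0.4% at 90 and 0.545% at 120 minutes and 0.489% in asynchronous cells. On the mean over release 4 members were lower, against 39.2% of all genes, and 2 higher, against 60.8%. Lower at all 7 release times was 1 member, Lifr, against 5.33% of all genes, and none was higher at all 7, against 3.88%. Lower at 6 or more of them were 3 members, Lifr, Il6st and Pim3, against 12% of all genes, and higher at 6 or more were Jak1 and Stat3, against 14.8%. The authors' deposited table called Lifr, Il6st and Pim3 lower, a call given to 7.26% of all listed genes, and Jak1 higher, a call given to 6.74%. Among genes of at least 1 TPM these shares were 9.46% and 8.52%. It gave Stat3 and Socs3 no call. How that call was reached, and on which stages, is not stated, and it rests on the same experiment, so it adds no separate evidence of direction. The members were also chosen with such results known.

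The next comparison asks when each gene came back after mitosis. All ratios within an arm share its mitosis column. The mitotic levels themselves differed between arms, with 1.27 TPM with auxin and 1.06 TPM without for Socs3. For Pim3 they were 1.13 TPM with auxin and 1.53 TPM without, so a gap between arms in such a ratio also holds the gap in mitosis. At 30 minutes the TPM of Pim3 was 1.53 times its mitotic level with auxin and 2.27 times without. Its log2 ratio with auxin, 0.35, ranked 335th among 8999 genes at that time, and its ratio without auxin, 0.82, ranked 25th. At 20 minutes the order was reversed, with 0.47 with auxin, ranked 36th, and 0.12 without, ranked 1900th. Which of these early ranks would hold in single libraries cannot be seen in group means.

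At 40 minutes Socs3 came after Pim3 and Jak1 with auxin, and after Pim3 alone without auxin. At 40 minutes its TPM was 1.74 times the mitotic level with auxin and 2.94 times without, and for Pim3 these were 3.91 and 4.80 times. Jak1 stood at 2.42 and 2.14 times its mitotic level at this time. Lifr, Il6st and Stat3 were all between 0.907 and 1.13 times theirs in both arms. Pim3 and Socs3 are short genes of 3533 and 4258 bases, while Il6st spans 42791, Stat3 52789, Lifr 106880 and Jak1 113309 bases.

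No member was 2-fold above mitosis on the log2(TPM + 1) scale at 20 or 30 minutes, against 0% and 0.0667% of all genes with auxin and 0.0111% and 0.1% without. At that fold 1 member had passed by 40 minutes in each arm, Pim3, against 6.01% of all genes with auxin and 5.73% without. By 50 minutes Jak1, Socs3 and Pim3 had passed in each arm, against 30.5% of genes with auxin and 30.6% without. At 60 minutes 5 members had passed in each arm, against 46.8% and 50.8% of genes, and the same was found at 90 minutes, against 46.7% and 44.9%. Without auxin at 60 minutes, Jak1 and Pim3 alone kept this fold with columns centred on their median, at log2 ratios of 1.06 and 1.17, and under quantile normalization, at 1.22 and 1.0003. Il6st, Stat3 and Socs3 were then at 0.22, 0.13 and 0.62 with centring and at 0.10, -0.039 and 0.57 under quantile normalization. Lifr did not reach this fold at any time in either arm, its highest log2 ratio being 0.85 with auxin and 0.98 without, both at 90 minutes, although with a pseudocount of 0.1 it stood at 1.30 without auxin at 60 minutes. At 120 minutes 2 members were still 2-fold above mitosis on this scale with auxin, Stat3 and Pim3, against 34.9% of genes. Without auxin there were 3, Stat3, Socs3 and Pim3, against 33.1%. In plain TPM, without the pseudocount, more members stood above 2-fold at 120 minutes. With auxin Jak1, Socs3 and Il6st were at 3.09, 2.45 and 2.38 times their mitotic level and Lifr at 1.95 times. Without auxin Jak1, Il6st and Lifr were at 3.23, 2.63 and 2.15 times theirs.

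Most genes were above mitosis by 60 minutes, with a median log2 ratio over all genes of 0.95 with auxin and 1.01 without. Against that shift, Lifr at 0.67 with auxin and 0.87 without was below the median gene. Il6st at 1.16 and 1.32 and Stat3 at 1.06 and 1.23 were above it, although Stat3 without auxin turned to -0.039 under quantile normalization and Lifr to -0.16. Socs3 stood at 1.25 and 1.72. Jak1 at 2.13 and 2.16 and Pim3 at 2.20 and 2.27 were well above it, with 4.07% and 3.07% of genes as high in the arm without auxin.

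**Figure D3:**
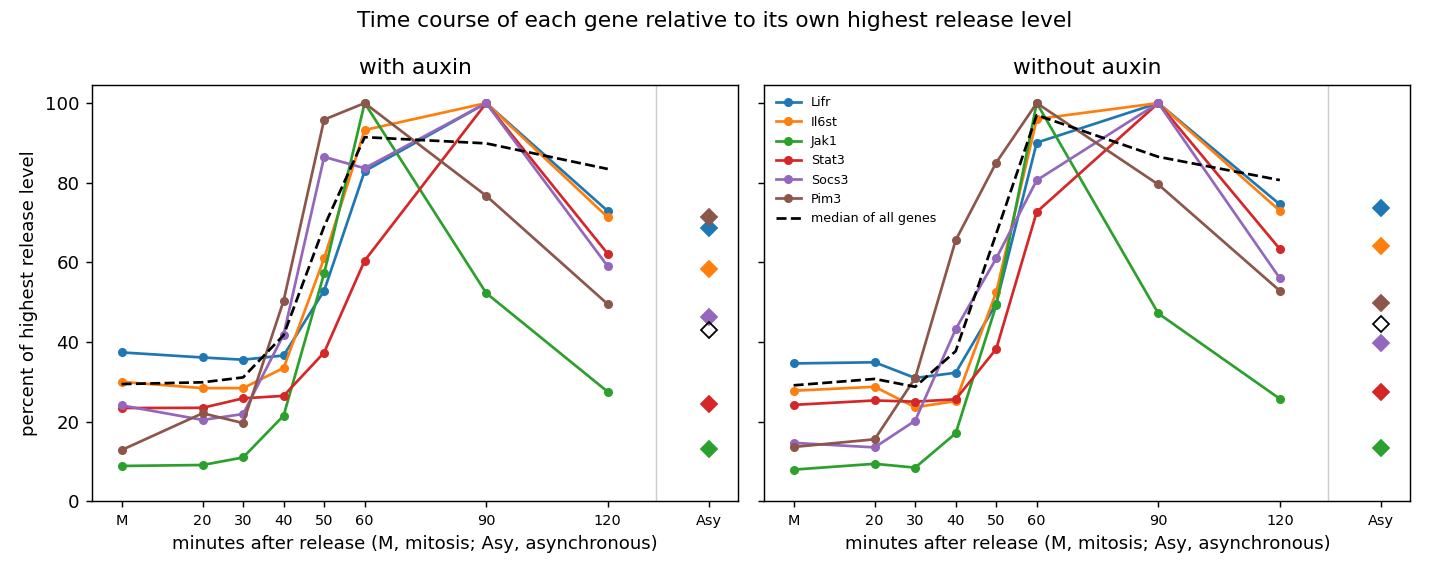
Level of each gene as a percent of its own highest release level, with auxin on the left and without auxin on the right, with the median of 8999 genes as a dashed line; M is mitosis and diamonds are asynchronous cells. At 40 minutes Pim3 is at 50.4% with auxin and 65.6% without, and Stat3 is at 26.5% with auxin and 25.6% without.

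The genes also differed in how the release levels compared with asynchronous culture. A highest release level at least 2-fold above asynchronous cells, on the log2(TPM + 1) scale, was found with auxin for Jak1 and Stat3, against 37.4% of all genes, and without auxin for Jak1, Stat3 and Socs3, against 36.2%. Without auxin, Jak1 alone kept this fold with centring, at a log2 ratio of 1.18, and under quantile normalization, at 1.27. Stat3 was then at 0.86 and 0.75 and Socs3 at 0.43 and 0.29. By 120 minutes Lifr was at 1.06 times its asynchronous TPM with auxin and 1.01 times without, and Il6st at 1.22 and 1.14 times. Pim3 was at 0.694 times with auxin and 1.06 times without. Jak1 and Stat3 were still at 2.09 and 2.55 times with auxin and at 1.93 and 2.30 times without.

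Per length, the order of the 6 levels changed along the course. In mitosis Stat3 was the highest of the 6 in both arms, at 2.20 TPM with auxin and 2.06 TPM without, and Jak1 the lowest. At 60 minutes Pim3 was the highest in both arms and Lifr the lowest. At 90 minutes Stat3, at 9.40 TPM, was above Pim3, at 6.73 TPM, with auxin, and just below it without, at 8.49 and 8.92 TPM. In asynchronous cells Pim3 was the highest and Jak1 the lowest in both arms. Without a replicate spread, neighbours in these orders cannot be said to differ.

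Genes with the most similar course, by Pearson correlation of log2(TPM + 1) over the 18 groups, were found for each member. For Lifr they were Chmp4c (0.988), Fgd1 (0.987) and Gabbr1 (0.986). For Il6st they were Scpep1 (0.990), Clcn6 (0.989) and Arl6ip5 (0.989), and for Jak1 Slc16a10 (0.997), Gdap2 (0.996) and Tmem28 (0.996). For Stat3 they were Pcnt (0.994), Uhrf1bp1l (0.991) and Spag9 (0.990), for Socs3 Bst2 (0.979), Atf6b (0.973) and Hook2 (0.971) and for Pim3 they include Rps2 (0.969) and Ubald2 (0.966). Rps2 has close copies in the genome, so its value is uncertain. Among the 15 pairs of members the highest correlation was that of Lifr with Il6st, 0.980, followed by Socs3 with Pim3, 0.925, and the lowest was that of Stat3 with Pim3, 0.602.

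A wider list of 54 ligands, receptors, kinases, STATs, inhibitors, adaptors and LIF-responsive targets, the 6 members included, was written with earlier results known, and 52 of its genes had values. Of these, the authors' deposited table called 10 lower and 5 higher, and gave 37 no call, where 7.26% and 6.74% of all listed genes had such calls. Of the 39 genes that reached 1 TPM in some group, 17 were lower and 22 higher with auxin on average after release, with a median log2 difference of 0.02. Over all 8999 genes 39.2% were lower and the median was also 0.02. By role, the 9 targets with values held 6 of the calls for lower. These were Tfcp2l1, Pim3, Klf5, Klf4, Pim1 and Bcl3. The median log2 difference of the 9 targets was -0.23, and 7 of them were lower. Socs3, described above as a target of Stat3, was counted with the inhibitors and had no call, so these counts depend on how roles were assigned. None of the 7 STATs, the 7 ligands or the 4 adaptors with values was called either way, but 4 of these STATs and 5 of the ligands were under 1 TPM in every group.

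Among the targets, the transcription factor gene Tfcp2l1 averaged 1.28 TPM with auxin and 2.43 TPM without over the release times. Klf4, another pluripotency factor, averaged 2.57 TPM with auxin and 3.22 TPM without, and its relative Klf5 7.33 TPM with auxin and 9.03 TPM without. Pim1, the kinase gene related to Pim3, averaged 4.31 TPM with auxin and 5.14 TPM without, and the NF-kappa-B cofactor gene Bcl3 1.87 TPM with auxin and 1.98 TPM without. Pim2 was the 1 target called higher and averaged 3.56 TPM with auxin and 3.13 TPM without. Myc and Gbx2, which were not called, averaged 2.95 TPM with auxin and 3.10 TPM without, and 1.64 TPM with auxin and 1.48 TPM without. In asynchronous cells the log2 difference was -0.90 for Tfcp2l1, -0.66 for Klf5 and -0.55 for Klf4, wider than their means over release. It was also below 0 there for Bcl3 and Myc, and above 0 for Pim1, Pim2, Pim3 and Gbx2. In mitosis Tfcp2l1 stood at -0.45, Klf5 at -0.30 and Klf4 at -0.09. Pim2, Gbx2 and Myc were above 0 in mitosis and the other targets below.

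Of the other receptors, Cntfr, which binds ciliary neurotrophic factor and joins Lifr and Il6st, was called higher and averaged 0.905 TPM with auxin and 0.784 TPM without. Osmr and Il6ra, partners of Il6st for other cytokines, stayed at or under 0.0780 TPM in every group. Among kinases, Jak3 was called lower and averaged 3.16 TPM with auxin and 3.77 TPM without, lower at all 7 times. Jak2 reached at most 0.363 TPM and Tyk2 averaged 2.31 TPM with auxin and 2.36 TPM without. Lif itself stayed at or under 0.552 TPM, with means of 0.241 TPM with auxin and 0.293 TPM without. Cntf averaged 6.80 TPM with auxin and 5.77 TPM without and was higher at all 7 times without a call, but it overlaps another RefSeq gene, so its value is uncertain.

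Of the 15 inhibitors, Pias2 was called lower and Pias1 and Pias3 higher, where 7.26% and 6.74% of all listed genes had such calls. On average after release 4 of the 14 that reached 1 TPM were lower, against 39.2% of all genes. Socs1, a close relative of Socs3, averaged 0.954 TPM with auxin and 1.48 TPM without, and had no call. Socs2 went the other way, with 4.35 TPM with auxin and 3.79 TPM without, higher at all 7 times and also not called. Pias3, named for its inhibition of Stat3, averaged 2.20 TPM with auxin and 2.05 TPM without.

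**Figure D4:**
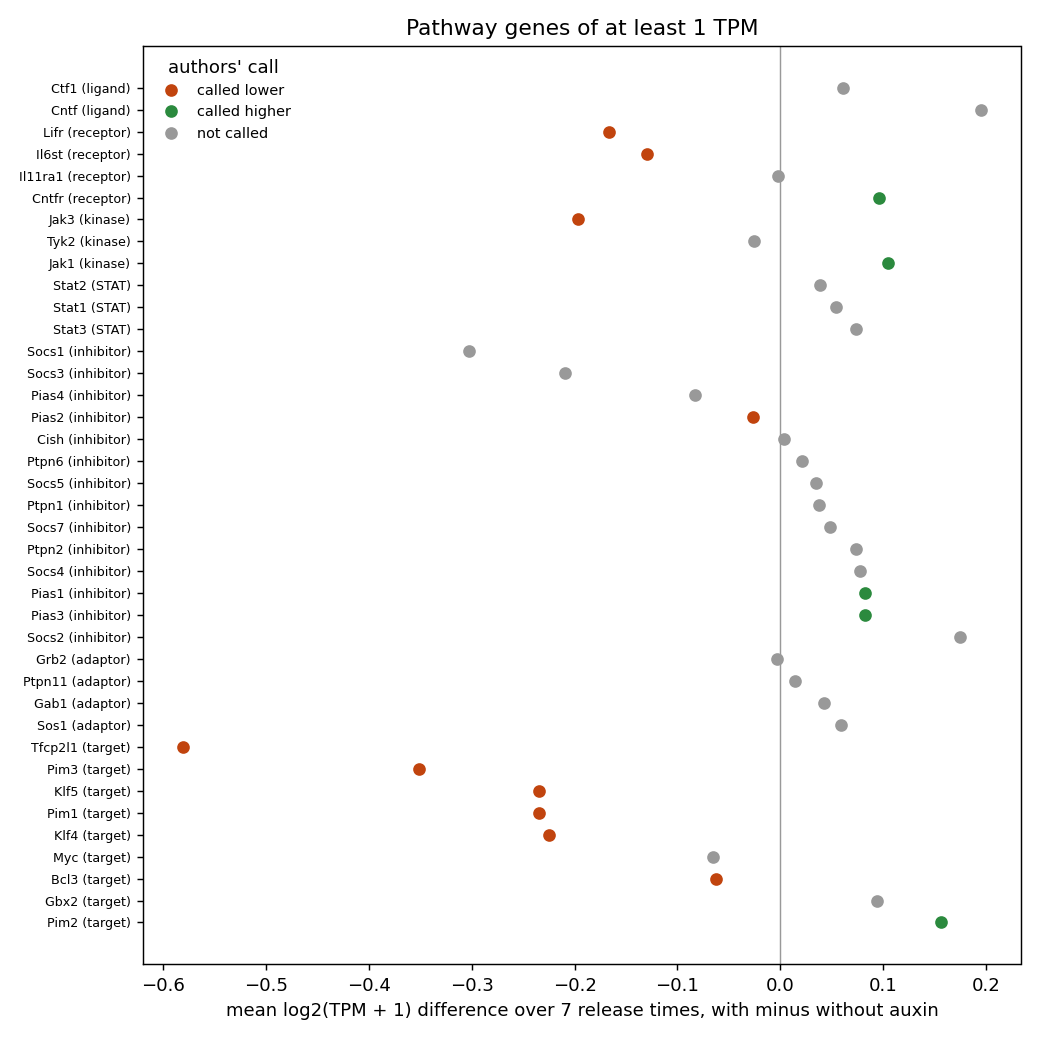
Mean difference in log2(TPM + 1) over the 7 release times, with minus without auxin, for the 39 listed genes that reached 1 TPM, grouped by role and coloured by the call in the authors' deposited table. Of the 9 targets 7 lie below 0, led by Tfcp2l1 at -0.58 and Pim3 at -0.35, while all 3 STATs lie between 0.04 and 0.07.

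Nr5a2 peaks were found within 10 kb of all 6 genes, 21 in total, as was at least 1 peak for 70.5% of the 13869 genes whose symbol has a RefSeq position. The list gives each peak a class code, L, eB, dB or nB, that the sources used here do not define, and it holds no value per library that would let mitosis be set against interphase. Class L held 9 of the 21 peaks, eB 7, dB 4 and nB 1. In the whole list L made up 65.1%, eB 18.1%, dB 10.3% and nB 6.46%.

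Lifr had 7 peaks, and 4.38% of genes had as many, while its 0.552 peaks per 10 kb of window was a density reached by 20.9% of genes. A peak of class dB at chr15:7115132-7117575, 2443 bases long, lay within the gene span, 11997 bases before the nearer of the 2 start sites with a promoter entry, and 0.318% of all peaks are as long. A short peak of class L, at chr15:7129923-7130170, began 351 bases after the start site whose promoter is printed above. Il6st had 1 peak, of class eB at chr13:112462052-112463003, which ended 1067 bases before its start, and 59.5% of genes had as high a density.

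Jak1 had 3 peaks, a count reached by 26.0% of genes and a density reached by 51.6%. That of class eB at chr4:101265327-101266450 began 104 bases before the start site and covers the capitals of the printed sequence, and the other 2 lay more than 93 kb into the gene. Stat3 also had 3 peaks, at a density reached by 30.0% of genes, the nearest one of class L, 2668 bases before the start, and 1 of class dB at chr11:100947301-100947907, 7761 bases before it.

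Socs3 and Pim3 are short, and their windows are small. Socs3 had 4 peaks, 1.65 per 10 kb of window, a density reached by 1.31% of genes, and 15.7% of genes had as many peaks. They include a peak of class dB at chr11:117972197-117973391, 2831 bases before the start, and 1 of class eB at chr11:117974458-117976700, 2242 bases long. Pim3 had 3 peaks, 1.27 per 10 kb, a density reached by 3.40% of genes, and 26.0% of genes had as many peaks. Its peak of class dB at chr15:88864342-88868291 begins within the gene, 2148 bases after the start, and is 3949 bases long, a length reached by 0.0284% of all peaks. The median gene had 0.238 peaks per 10 kb. All 3 members called lower in the authors' deposited table, the 1 called higher and both without a call had at least 1 peak.

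**Figure D5:**
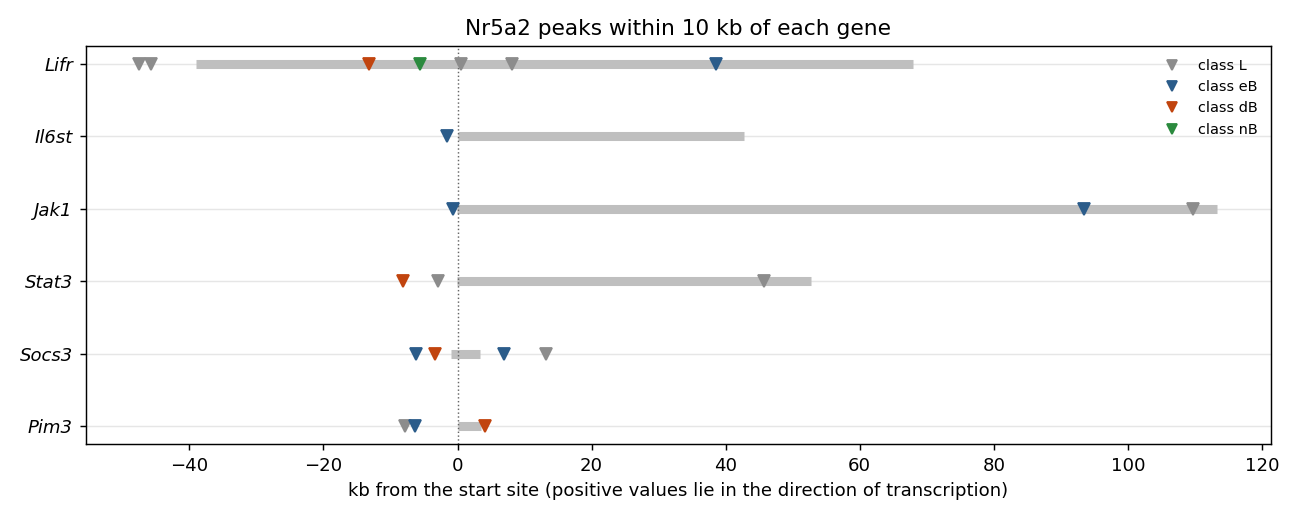
Position of the 21 Nr5a2 peaks (triangles at peak centres, coloured by class code) within 10 kb of each gene, in kb from the start site, with the RefSeq gene span as a grey bar; for Lifr the upstream start site of the 2 with a promoter entry is at 0. Jak1 and Il6st each have a peak of class eB just before the start, and Socs3 and Pim3 have their peaks within 14 kb of it.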

How the data were processed

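RNA-seq of 54 libraries and ChIP-seq of 12 were made by the authors. Libraries for RNA were ribo-depleted and stranded, per the labels' protocols. Per the submitters' processing notes, mm10 was used, and the tools listed are STAR, RSEM, DESeq2, Bowtie2 and MACS2, with no version. The authors deposited TPM values with 1 column per group. Multiplying by 3 turned all 246530 nonzero values into whole units of the 9th decimal (tolerance 0.02 units), as for means of 3 libraries. The depth per library is unknown. The arm of each sample was read from its title, since the treatment entry reads ctl throughout. Whether counting used strand is not stated. RefSeq genes overlap Jak1 (Raver2 and 3 others), Stat3 (Gm46295) and Pim3 (Gm33049).

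From the deposited TPM, log2(TPM + 1) was computed, then the difference with minus without auxin per stage, its mean over the 7 release times and the ratio to mitosis. Shares of all genes use the 8999 genes of at least 1 TPM in at least 1 group. The planned limma fit needs replicates and was not run, so nothing was tested. Peaks were assigned within the gene or 10 kb of either side, by any overlap, with RefSeq positions on GRCm38.p6. Named genes are the 6 members, pathway-list genes with a call or at least 1 TPM, and the 3 genes most correlated with each member. For Pim3, 1 of these is not reported here. Osmr, Il6ra, Jak2 and Lif fall outside this rule and were named after their values were seen. Members and lists were chosen with earlier results of these data known. Alternatives were another pseudocount, centring, quantile normalization, leaving out each time, no filter and other peak windows. Python 3.11.15, pandas 2.3.3 and NumPy 2.4.6 were used, and the code was tested on simulated data.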

Additional observations from a re-analysis of the deposited data

How the results depend on the processing

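The mean differences after release kept their sign for all 6 genes with a pseudocount of 0.1, with columns centred on their median, under quantile normalization and without any 1 of the 7 times. Their median over the 6 genes, -0.15, ranged from -0.21 to -0.12. In asynchronous cells the sign of Stat3, at -0.018, turned to 0.030 with centring and 0.041 under quantile normalization, and the median over the genes, -0.095, became -0.047 with centring and -0.050 under quantile normalization. The ratios to mitosis at 60 minutes without auxin depend on the scaling, because most genes are above mitosis then. Their median over the 6 genes, 1.52, became 2.04 with a pseudocount of 0.1, 0.42 with centring and 0.33 under quantile normalization. Lifr turned to -0.23 and -0.16 under these 2 scalings and Stat3 to -0.039 under quantile normalization. The median ratio of the highest release level to asynchronous cells without auxin, 0.99, became 1.14, 0.46 and 0.29 under the same 3 alternatives, which were added for this ratio after the data were seen. There Lifr turned to -0.33 and -0.37 and Il6st to -0.13 and -0.30 with centring and quantile normalization. Within the gene span alone Il6st had 0 peaks, Socs3 0, Stat3 1 and Pim3 1, and within 50 kb these genes had 3, 12, 7 and 11 peaks. Counts over the wider list stayed within 1.5 times of 17 lower and 22 higher under its 4 alternatives. Of 114 values of single genes compared, 77 moved by no more than the gene's SD over release times, 28 moved by more and 9 changed sign. The values that left out 1 time are all among the 77, but leaving out 1 of 7 times cannot move a mean by more than that SD. Beyond the sign, they therefore say nothing of stability. No paired analysis was possible because the table holds 1 mean per group, and no replicate could be left out for the same reason. Group means also limit what can be said of the low levels before 40 minutes.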

Other observations

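Relatives of the members gave courses of their own, and they were singled out after their values were seen. Pim1 had 0.941 TPM in mitosis, 1.24, 1.29, 4.26, 8.41, 8.22, 4.29 and 2.46 TPM through the 7 release times and 2.55 TPM in asynchronous cells with auxin. Without auxin the values at the same stages were 1.05 TPM, 1.42, 2.10, 5.38, 9.70, 8.83, 5.38 and 3.14 TPM and 2.32 TPM. The widest log2 gap of Pim1 came at 30 minutes, at -0.44, the time at which that of Pim3 was also widest. Its difference in asynchronous cells, 0.10, had the opposite sign to that at all 7 release times, while Pim3 was above 0 in asynchronous cells and at 20 minutes. Pim2 had the other direction, with log2 differences above 0 at 6 of 7 release times and 0.20 in asynchronous cells. Whether the difference between stages or between the Pim genes exceeds the spread of libraries was not tested, since the table gives 1 mean per group.

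Socs1 had 0.358 TPM in mitosis, 0.144, 0.506, 1.53, 1.72, 1.84, 0.183 and 0.765 TPM through the 7 release times and 0.271 TPM in asynchronous cells with auxin. Without auxin the values were 0.152 TPM, 0.238, 0.772, 2.47, 2.73, 2.76, 0.616 and 0.761 TPM and 0.391 TPM. Its 3 highest times were 40, 50 and 60 minutes in both arms, with log2 differences of -0.46, -0.46 and -0.41, and at 120 minutes the difference was 0.0029. Jak3 had 1.54 TPM in mitosis and 5.77 TPM at 120 minutes with auxin, against 1.90 and 6.82 TPM without. It was below the arm without auxin at all 9 stages, by a log2 difference that stayed between -0.22 and -0.14, and its highest level came at 120 minutes in both arms, later than for any of the 6 members.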
